A study of Mus musculus with 18 samples.

Results

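Of the 47729 genes in a table of mouse liver RNA sequencing, 9 that set how the liver makes, stores and releases glucose are described here. They were taken by symbol through GENCODE vM21, were chosen by name and not by a threshold on values, and all 9 passed the filter on low counts. The libraries came from mice that had undergone ischemia-reperfusion (IR) of the liver, in which the blood supply is interrupted and then restored, or sham surgery. The labels give 3 genotypes under each surgery, namely Il22-/-, which lacks the cytokine IL-22, Il22bp-/-, which lacks its soluble binding protein (gene Il22ra2), and wt, with 3 samples for each of the 6 combinations. The headers give 9 libraries as IR and 9 as W with no genotype, so each group below mixes the 3 genotypes. W was read as sham surgery by elimination, because 9 sham samples remain once the IR samples are set aside and only 6 samples are wt. The age and sex of the mice, the time after surgery and the way each knockout was made are not in the labels.

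In the fasted liver, gluconeogenesis builds glucose from lactate, glycerol and amino acids. Phosphoenolpyruvate carboxykinase (Pck1), fructose-1,6-bisphosphatase (Fbp1) and the catalytic subunit of glucose-6-phosphatase (G6pc) carry out its committed steps. Glucagon and glucocorticoids raise these genes through cAMP signalling, the glucocorticoid receptor and the coactivator PGC-1alpha (Ppargc1a), and insulin lowers them through IRS2 and AKT. In the fed liver glucose enters through GLUT2 (Slc2a2), is stored as glycogen by glycogen synthase (Gys2) or is broken down by liver pyruvate kinase (Pklr).

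Of the 9 genes, 5 fell after IR, 1 rose and 3 did not pass the test. Pck1, Fbp1 and tyrosine aminotransferase (Tat) were those that did not pass. G6pc fell 1.66-fold, Ppargc1a 2.57-fold, Pklr 3.64-fold, Gys2 7.86-fold and Slc2a2 8.49-fold, and Irs2 rose 2.31-fold (limma on log2(normalized count + 1), adjusted p over 12501 genes). With 5 members lower and 1 higher, 6 of 9 passed at an adjusted p under 0.05. The response of the whole liver was broad: 75.8% of all genes tested passed, 37.9% as lower and 37.8% as higher in IR, so a count of 6 of 9 members is near the background. At a change of at least 2-fold, 4 members passed as lower, against 17.0% of all genes, and 1 as higher, against 14.8%. The median log2 fold change was -0.73 over the 9 members and 0.01 over all genes tested.

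Upstream sequence is shown for 4 members that stand for the 4 outcomes: Pck1, which did not pass the test, Ppargc1a, which fell, Slc2a2, which fell most, and Irs2, which rose. The windows come from RefSeq (GRCm38.p6), run 5′ to 3′ on the gene's strand and end at or before the annotated start. Bases inside an annotated exon were left off. Capitals mark matches on either strand to 7 short motifs, none of which overlapped another in these windows. They were the TATA box, searched as TATAAA, and the core of the cAMP response element, searched as TGACG. Forkhead sites were searched as TGTTTAC and also as TGTTTGC. The E-box was searched as CACGTG, part of the HNF1 site as GTTAAT, and the CCAAT box as CCAAT.
Pck1, chr2:173152823-173153047, + strand: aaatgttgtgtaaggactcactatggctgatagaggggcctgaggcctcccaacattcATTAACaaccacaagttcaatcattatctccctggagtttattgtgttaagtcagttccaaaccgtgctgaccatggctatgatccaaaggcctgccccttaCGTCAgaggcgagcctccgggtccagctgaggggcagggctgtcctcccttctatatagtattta
Ppargc1a, chr5:51567727-51567975, - strand: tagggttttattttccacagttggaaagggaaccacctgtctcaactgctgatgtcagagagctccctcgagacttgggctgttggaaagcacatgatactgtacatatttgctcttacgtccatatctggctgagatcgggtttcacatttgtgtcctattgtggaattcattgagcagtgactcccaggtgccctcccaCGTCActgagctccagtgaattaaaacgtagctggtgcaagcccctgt
Slc2a2, chr3:28697653-28697902, + strand: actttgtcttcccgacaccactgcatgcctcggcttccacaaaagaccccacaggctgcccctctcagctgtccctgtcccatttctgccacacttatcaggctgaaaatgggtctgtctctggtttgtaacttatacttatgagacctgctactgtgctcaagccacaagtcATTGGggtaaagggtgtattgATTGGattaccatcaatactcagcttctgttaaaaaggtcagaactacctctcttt
Irs2, chr8:11008930-11009179, - strand: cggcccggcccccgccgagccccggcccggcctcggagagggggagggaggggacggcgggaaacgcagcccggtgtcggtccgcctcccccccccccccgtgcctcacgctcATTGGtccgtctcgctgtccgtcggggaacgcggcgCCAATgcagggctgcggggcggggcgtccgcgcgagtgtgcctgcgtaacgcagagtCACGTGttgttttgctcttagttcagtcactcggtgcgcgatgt
Pck1 had a TGACG match beginning 90 bases before its RefSeq start and Ppargc1a one beginning 49 bases before; 17.8% of the 32851 windows of 250 bases in the table hold this pentamer. Pck1 also had a GTTAAT match 192 bases before the start, a hexamer found in 6.43% of windows. Irs2 held CACGTG 44 bases before its start, against 6.02% of windows, and CCAAT at 137 and 101 bases. Slc2a2 held only CCAAT, at 77 and 56 bases before the start, which 33.8% of windows hold. None of these 4 windows held TATAAA or either forkhead heptamer, which occur in 12.4%, 3.17% and 4.30% of windows. A match describes the letters only and says nothing of binding. RefSeq windows were found for 8 of the 9 members, and Gys2 is named without one.

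Before the values, a feature of the libraries has to be given. All 9 sham libraries held Xist RNA, between 1751 and 5335 normalized counts, and no more than 2.1 normalized counts summed over 4 Y-linked genes (Ddx3y, Uty, Eif2s3y and Kdm5d). Among the IR libraries only IR3, IR6 and IR9 had this pattern. The other 6 IR libraries held 443.7 to 1034.4 Y-linked normalized counts, and IR5 and IR8 held both these and over 500 normalized counts of Xist. Libraries with Y-linked reads thus occurred in the IR group only, their part in the results cannot be told apart from surgery across all libraries, and the members' results are also given for those 3 IR libraries against the 9 sham libraries. The headers name no genotype, so the targeted genes check no label: Il22 was at 0 in all 18 libraries, and Il22ra2 had 29.9 to 56.0 normalized counts in 3 IR and 3 sham libraries and at most 1.0 in the other 12. Libraries held 10176617 to 12558179 reads in genes in IR and 10716890 to 12763837 in sham.

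The enzymes that carry out gluconeogenesis lay closest to the sham level. Pck1 (ENSMUSG00000027513, plus strand of chromosome 2, 173153048 to 173159273 in GRCm38) makes phosphoenolpyruvate from oxaloacetate. It ran from 4794 through a median of 19725 to 27548 normalized counts in IR libraries, and from 12552 through 24688 to 28946 in sham libraries. The groups overlapped in all but 1 IR library, IR9, which was the lowest of the 18. The mean was 18653 ± 6576 in IR and 22992 ± 5330 in sham (SD, n = 9 each), a log2 fold change of -0.39 ± 0.26 (SE) that did not pass in limma (adjusted p = 0.178). The 95% interval ran from -0.93 to 0.15, which includes falls as well as a small rise. Without IR9 the log2 fold change was -0.16 (adjusted p = 0.388), and from IR3, IR6 and IR9 alone it was -0.86 (adjusted p = 0.0550). With the Y-linked level as a covariate Pck1 passed, at -0.93 (adjusted p = 0.0229). Both of these fits held IR9, and neither was run without it. Pck1 was at 15933 normalized counts in IR3, 24263 in IR6 and 4794 in IR9.

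Fbp1 (ENSMUSG00000069805, minus strand of chromosome 13, 62864753 to 62888282), which removes a phosphate from fructose-1,6-bisphosphate, also did not pass with all libraries. Its values ran from 3286 through 9675 to 13674 normalized counts in IR and from 9740 through 11291 to 14465 in sham. Of the 9 IR libraries, 5 lay below the lowest sham library. The log2 fold change was -0.39 ± 0.21 (limma, adjusted p = 0.0896), with a 95% interval from -0.82 to 0.04. This call turned on single libraries: it passed without IR1 (-0.47, adjusted p = 0.0425) or without IR4 (-0.47, adjusted p = 0.0444), and was -0.21 (adjusted p = 0.170) without IR9. It also passed in IR3, IR6 and IR9 alone, at -0.70 (adjusted p = 0.0306), and with the Y-linked covariate, at -0.74 (adjusted p = 0.0305). Both of these fits held IR9, the lowest IR library, and neither was run without it. Fbp1 was at 9675 normalized counts in IR3, 11548 in IR6 and 3286 in IR9.

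Tat (ENSMUSG00000001670, plus strand of chromosome 8, 109990437 to 109999803) starts the breakdown of tyrosine and is a classical glucocorticoid target. It ran from 6423 through 12627 to 20489 normalized counts in IR and from 10949 through 14980 to 17404 in sham. Here IR libraries lay on both sides of the sham range, with IR9 below it and IR5 and IR8 above it. The log2 fold change was -0.19 ± 0.16 (limma, adjusted p = 0.312; 95% interval -0.53 to 0.16). Without IR9 the log2 fold change was -0.06 (limma, adjusted p = 0.670). From IR3, IR6 and IR9 alone it was -0.48 (adjusted p = 0.0477), with Tat at 12372, 13897 and 6423 normalized counts in that order.

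G6pc (ENSMUSG00000078650, plus strand of chromosome 11, 101367561 to 101377903) is the last step, which frees glucose from glucose-6-phosphate. It was the gluconeogenic enzyme among the members that passed the test. Values ran from 872.0 through 1338 to 1863 normalized counts in IR and from 1372 through 2261 to 3080 in sham. The overlap came from the sham library W4, since the other 8 sham libraries lay above every IR library. The log2 fold change was -0.73 ± 0.17 (limma, adjusted p = 0.000527; two-sided exact permutation p = 0.00132 over 48620 splits). It was -0.99 in IR3, IR6 and IR9 alone (adjusted p = 0.00141).

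**Figure D1:**
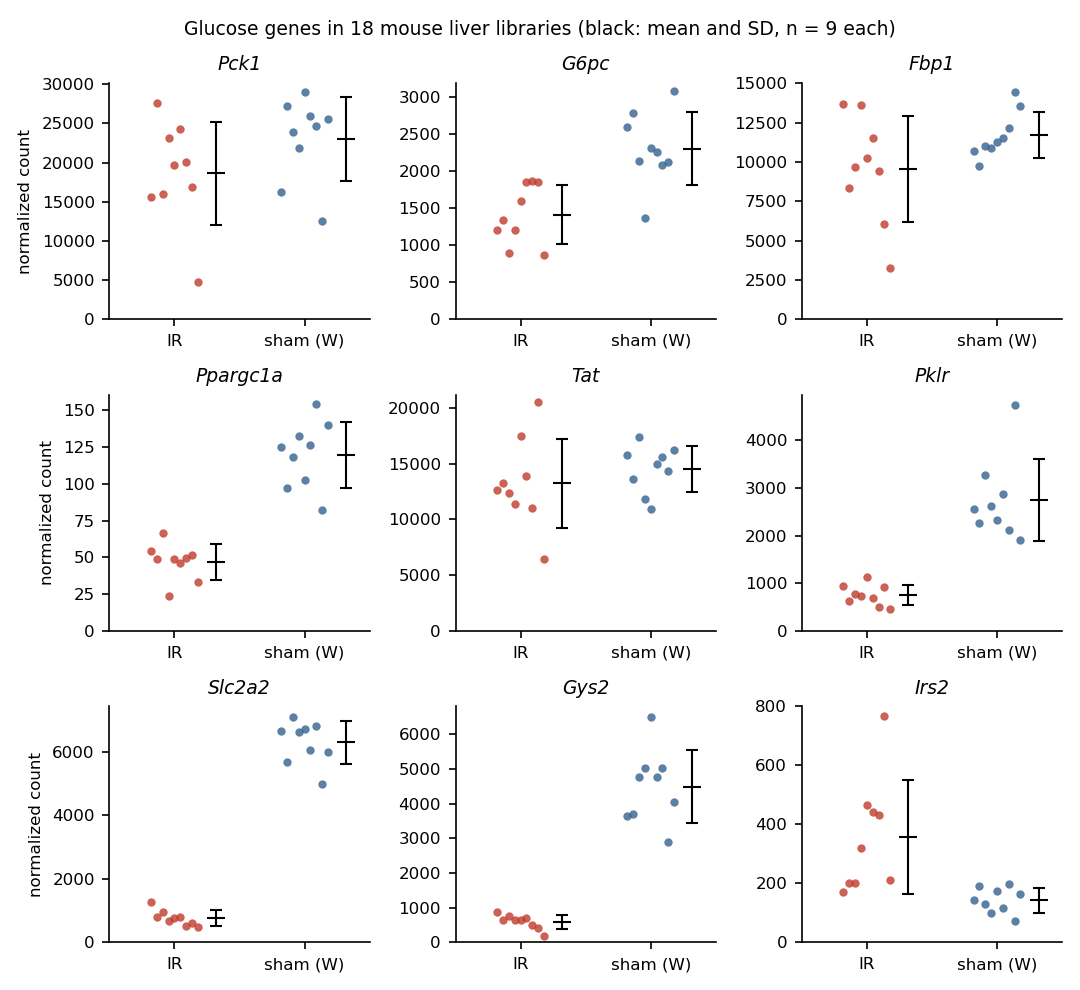
Normalized counts (y axis, from 0) of the 9 glucose genes in each of 9 IR libraries (red) and 9 sham libraries headed W (blue), with the mean and SD in black; the sideways position of a point carries no value. Slc2a2, Gys2, Pklr and Ppargc1a show no overlap between the groups, while Pck1 and Tat overlap widely. For Fbp1, 5 of 9 IR points lie below the lowest sham point. The lowest IR points of Pck1, Fbp1 and Tat are at 4794, 3286 and 6423, all in library IR9.

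The largest falls were in the fed-state handling of glucose. Slc2a2 (ENSMUSG00000027690, plus strand of chromosome 3, 28697903 to 28731359) encodes GLUT2, the main glucose transporter of hepatocytes, and its upstream window is the Slc2a2 line printed above. It ran from 488.0 through 783.7 to 1276 normalized counts in IR and from 4982 through 6637 to 7109 in sham. The highest IR library lay far below the lowest sham library. The log2 fold change was -3.09 ± 0.15 (limma, adjusted p = 3.54e-13), and it was -3.11 in IR3, IR6 and IR9 alone (adjusted p = 5.22e-10).

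Gys2 (ENSMUSG00000030244, minus strand of chromosome 6, 142422613 to 142473109), the liver isoform of glycogen synthase, ran from 192.5 through 651.1 to 872.3 normalized counts in IR and from 2910 through 4759 to 6505 in sham. The groups did not overlap, and the change was -2.97 ± 0.23 (limma, adjusted p = 4.09e-10), and -3.22 in IR3, IR6 and IR9 alone (adjusted p = 1.81e-06).

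Pklr (ENSMUSG00000041237, plus strand of chromosome 3, 89136142 to 89146784) is the pyruvate kinase of liver and red cells, which closes glycolysis and is raised by glucose and insulin. It ran from 462.2 through 737.5 to 1126 normalized counts in IR and from 1905 through 2567 to 4747 in sham, again without overlap. On the log2 scale the change was -1.87 ± 0.18 (limma, adjusted p = 7.36e-09), and -2.08 in IR3, IR6 and IR9 alone (adjusted p = 9.20e-07). Pklr shares 711 exonic bases with Hcn3 on the opposite strand, and the labels do not say whether reads were counted by strand. Hcn3 had 3.9 to 85.0 normalized counts in IR and 69.8 to 175.6 in sham, far fewer than Pklr.

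Across these 4 falls the two-sided exact permutation p was 4.1e-05 for Slc2a2, Gys2, Pklr and Ppargc1a alike, the smallest that 48620 splits can give. The same 4 members had no overlap between the groups, and 40.4% of all genes tested had none. The RNA is from bulk liver tissue, in which fewer hepatocytes and less RNA per hepatocyte cannot be told apart.

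The regulators among the members moved in opposite directions. Ppargc1a (ENSMUSG00000029167, minus strand of chromosome 5, 51454250 to 51567726) had the lowest counts of the 9 genes, from 23.5 through 49.1 to 66.6 normalized counts in IR and from 82.3 through 124.9 to 154.2 in sham. Every IR library lay below every sham library, at a log2 fold change of -1.36 ± 0.16 (limma, adjusted p = 2.19e-07), and -1.31 in IR3, IR6 and IR9 alone (adjusted p = 2.58e-05).

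Irs2 (ENSMUSG00000038894, minus strand of chromosome 8, 10984681 to 11008458), the adaptor that links the insulin receptor to PI3-kinase in liver, was the member that rose. It ran from 170.5 through 319.7 to 765.4 normalized counts in IR and from 71.3 through 142.7 to 196.3 in sham. Of the 9 IR libraries, 8 lay above the highest sham library, and IR1 lay within the sham range. Irs2 had a log2 fold change of 1.21 ± 0.27 (limma, adjusted p = 0.000492; two-sided exact permutation p = 0.00037). In IR3, IR6 and IR9 alone it was 0.96 (adjusted p = 0.0103). Irs2 shares 162 exonic bases with 9530052E02Rik on the opposite strand, which had at most 2.1 normalized counts in any library.

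**Figure D2:**
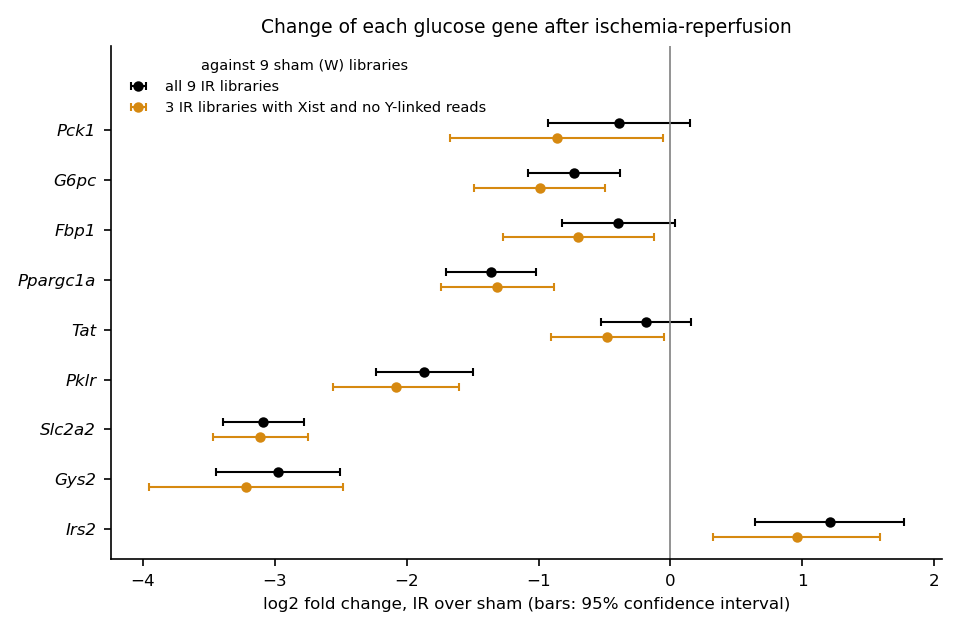
Log2 fold change of each member, IR over sham (x axis), with 95% confidence intervals, from all 9 IR libraries (black) and from the 3 IR libraries with Xist and no Y-linked reads (orange), each against 9 sham libraries. The 2 estimates lie on the same side of 0 for each of the 9 genes, and the intervals of Pck1, Fbp1 and Tat from all 9 libraries include 0.

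Levels were compared between genes per kilobase of annotated exon. In IR livers Fbp1 (5609 ± 1979 normalized counts per kilobase), Tat (5495 ± 1654) and Pck1 (5440 ± 1918) led, then G6pc (584.1 ± 164.8), Pklr (232.7 ± 66.6), Gys2 (225.6 ± 76.2), Slc2a2 (133.5 ± 42.6), Irs2 (56.3 ± 30.5) and Ppargc1a (7.1 ± 1.9; SD, n = 9). In sham livers the leading group was again Fbp1 (6884 ± 870), Pck1 (6705 ± 1554) and Tat (6041 ± 869), whose levels lay within their spread of each other, as in IR. Below them the sham order was Gys2 (1690 ± 395), Slc2a2 (1093 ± 117), G6pc (955.0 ± 202.2), Pklr (847.9 ± 264.2), Irs2 (22.6 ± 6.7) and Ppargc1a (18.2 ± 3.4). The neighbours Slc2a2, G6pc and Pklr in sham, and Pklr and Gys2 in IR, did not differ beyond their spread.

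Ratios within a library do not depend on its size factor and show the same shift as a description, with no test. The log2 ratio of Pck1 to Gys2 was 4.94 ± 0.45 in IR and 2.35 ± 0.27 in sham (SD, n = 9 each), and all 9 IR libraries lay above the highest sham library. For Pck1 to Pklr it was 4.55 ± 0.70 in IR and 3.08 ± 0.73 in sham, with 8 IR libraries above the highest sham library.

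The spread among livers was larger after IR in all 9 members, by 1.07 (Pklr) to 3.66 (Fbp1) times in the SD of log2 values; this held for 75.4% of all genes tested. Library IR9 was the lowest IR library for 7 members, and was lowest for 14.9% of all genes tested. The exceptions were Ppargc1a, lowest in IR4, and Irs2, lowest in IR1. Within the IR group the 36 pairs of members had a median Pearson r of 0.41 (-0.47 to 0.93, n = 9). Without IR9 the median was -0.02, so the positive median rested on that library. Single pairs still had a large r in both directions without IR9, such as 0.88 for Slc2a2 with Gys2 and -0.82 for Gys2 with Irs2. No pair passed adjustment by Pearson's r without IR9. Of 72 pairs tested in the 2 groups, none passed Benjamini-Hochberg adjustment by Pearson's exact permutation test, while 6 pairs in IR and 5 in sham had an unadjusted p under 0.05. By Spearman's rho 1 pair passed, Slc2a2 with Gys2 in IR (rho = 0.98, exact permutation adjusted p = 0.00357). Its Pearson r was 0.81 (exact permutation p = 0.00562, adjusted p = 0.135). Without the 2 libraries farthest from the median of Slc2a2, r was 0.83 (exact permutation p = 0.0204, adjusted p = 0.590). Livers with less Slc2a2 thus had less Gys2 within the IR group, where genotypes are mixed and libraries differ in Xist and Y-linked reads.

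**Figure D3:**
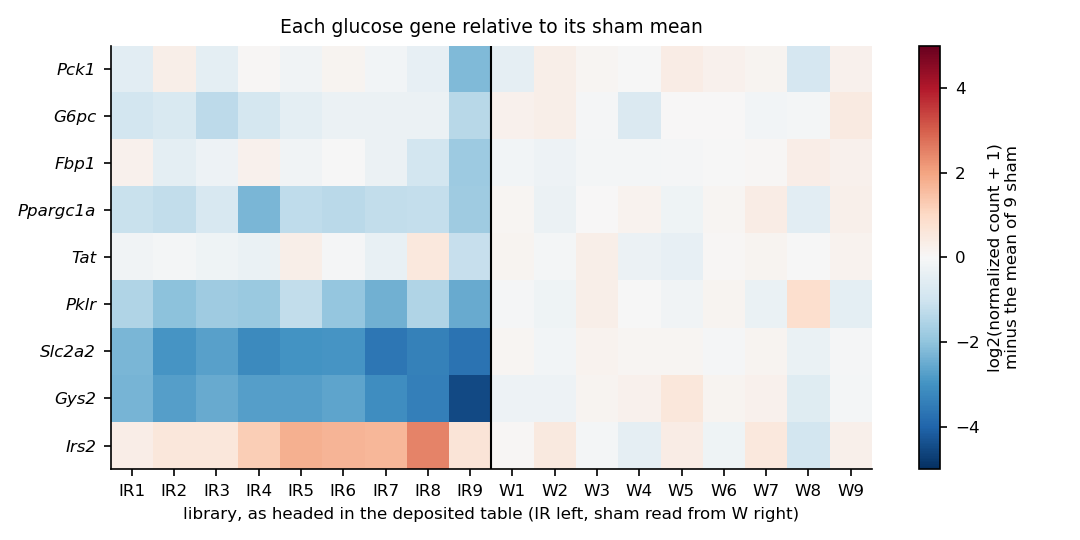
Log2(normalized count + 1) of each member (rows) in each library (columns, IR left and sham right), minus the gene's mean over the 9 sham libraries; blue is lower and red higher. Slc2a2 and Gys2 are blue in all 9 IR libraries, Irs2 is reddest in IR8 (765.4 normalized counts), and IR9 is the bluest IR column for 7 of the 9 genes.

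The genes most like each member in their variation among livers were found by Pearson r of log2 values centred within each surgery over 18 libraries, as a description. Values were not scaled to an equal spread, so the IR libraries, which spread more for these members, weighed more in r. These r values were not computed without IR9. Slc2a2 was nearest to Maob, monoamine oxidase B (r = 0.89), and Zfp385b (0.88). Among the genes most like Gys2 was Gbp10 (0.90). Fbp1 was nearest to Cfap126 (0.96) and Aadat (0.94), an aminotransferase of lysine breakdown. These were the closest likenesses of the set. Irs2 was nearest to Igfbp1 (0.85) and Pfkp (0.84), a phosphofructokinase. Pklr was nearest to Akt2 (0.84), a kinase of insulin signalling, and Hs6st1 (0.83). Tat was nearest to the forkhead factor Foxo3 (0.81) and to Arl4d (0.76). Pck1 was nearest to Ctcfl and Tesk2 (0.83 each), Ppargc1a to Cyp20a1 (0.80) and Zbtb1 (0.78), and G6pc to Cenpw and Hid1 (0.74 each).

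Other enzymes of the gluconeogenic route moved both ways. Of 21 tested genes in a list of 22 gluconeogenic enzymes and entry steps, 7 rose, 8 fell and 6 did not pass, with a median log2 fold change of -0.39 (all genes tested, 0.01). Pcx, pyruvate carboxylase, which feeds oxaloacetate to Pck1, rose with a log2 fold change of 0.82 ± 0.11 (limma, adjusted p = 1.66e-06), at 7926 ± 1492 normalized counts in IR and 4439 ± 499 in sham. Slc37a4, which carries glucose-6-phosphate to G6pc in the endoplasmic reticulum, fell by 1.36 on the log2 scale, to 1644 ± 430 in IR against 4123 ± 453 in sham (adjusted p = 9.83e-09). G6pc3, the widely expressed relative of G6pc, rose to 111.6 ± 24.4 in IR against 58.8 ± 10.9 in sham, by 0.90 on the log2 scale (adjusted p = 3.49e-06). Cytosolic malate dehydrogenase (Mdh1) fell to 3460 ± 833 in IR against 16471 ± 2362 in sham, a log2 fold change of -2.28. Lactate dehydrogenase A (Ldha) rose by 1.25 and the serine dehydratase-like gene Sdsl by 2.95 on the log2 scale, with adjusted p of 8.23e-08 and 1.07e-11.

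In the list for glycogen metabolism, which holds Gys2, 4 of 16 genes rose, 9 fell and 3 did not pass, and the median log2 fold change was -0.80. Ugp2, which makes the UDP-glucose that glycogen synthase uses, fell to 1042 ± 146 normalized counts in IR against 6123 ± 985 in sham, by 2.55 on the log2 scale (limma, adjusted p = 5.67e-14). Pygl, the liver glycogen phosphorylase that breaks glycogen down, fell to 1418 ± 333 in IR against 5146 ± 506 in sham (adjusted p = 3.13e-11). Gys2, Ugp2 and Pygl were thus lower in IR. Listed subunits of the kinase that activates glycogen phosphorylase moved both ways. Phkb and Phka2 fell, with log2 fold changes of -1.11 and -0.48 (limma, adjusted p of 2.12e-07 and 0.0146), while Phkg2 rose by 0.70 (adjusted p = 3.84e-05). Gsk3a, a kinase that inhibits glycogen synthase, and Pgm2 were the 2 with the largest rises, at log2 fold changes of 0.80 and 1.04.

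The glycolytic list split evenly, with 5 of 15 genes higher, 6 lower and 4 not passing. Pfkfb1, the liver form of the enzyme that sets fructose-2,6-bisphosphate, fell by 1.33 on the log2 scale, while the inducible form Pfkfb3 rose by 1.63 (limma, adjusted p of 0.000240 and 0.000134). Pdk4, which shuts pyruvate out of the mitochondrial oxidation route, rose to 1061 ± 1224 normalized counts in IR against 38.1 ± 10.6 in sham, a log2 fold change of 3.92 ± 0.58 (adjusted p = 7.58e-06). Its SD exceeded its mean in IR, yet its groups did not overlap.

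Among 8 transporters, 2 rose, 5 fell and 1 did not pass, with a median of -0.57. The change in Slc2a2 was not shared by the widely expressed glucose transporter Slc2a1 (GLUT1), which rose, with 179.2 to 2316 normalized counts in IR against 108.6 to 151.1 in sham, a log2 fold change of 2.12 ± 0.35 (limma, adjusted p = 1.94e-05). The monocarboxylate carrier Slc16a1 rose to 1228 ± 316 in IR against 546.5 ± 77.2 in sham, while its relative Slc16a7 fell by 2.76 on the log2 scale and the urate carrier Slc2a9 fell to 197 ± 93.3 in IR against 552 ± 75.5 in sham. In all 9 IR libraries Slc2a1 lay above the sham range and Slc2a2 below it.

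**Figure D4:**
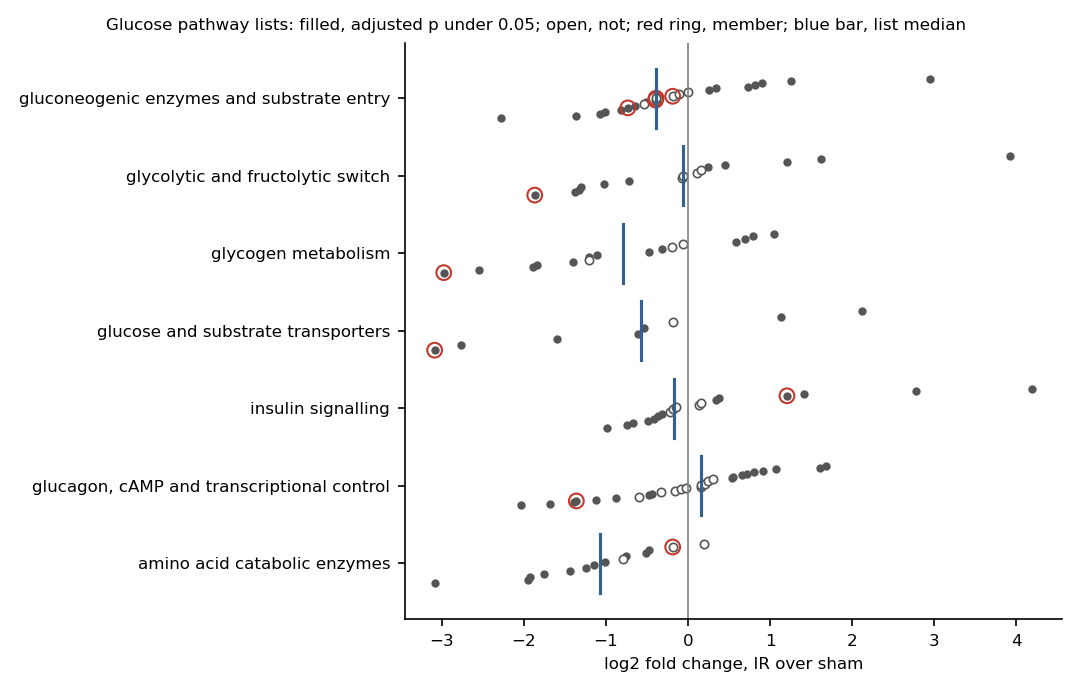
Log2 fold change, IR over sham (x axis), of each tested gene in 7 lists of glucose-related genes (rows); filled points passed an adjusted p under 0.05, open points did not, red rings mark the 9 members (Tat stands in 2 lists) and blue bars mark list medians. The amino acid list has no gene that passed as higher, and Slc2a2 and Gys2 are the lowest points of their lists.

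In the insulin signalling list 6 of 18 genes rose, 7 fell and 5 did not pass. Irs2 rose and its relative Irs1 fell by 0.74 on the log2 scale, to 32.6 ± 5.4 normalized counts in IR against 56.4 ± 17.5 in sham (limma, adjusted p = 0.000284). Igfbp1, a secreted protein that insulin represses, rose to 5001 ± 4196 in IR against 666.7 ± 319.2 in sham, by 2.78 ± 0.42 on the log2 scale (adjusted p = 7.68e-06). Socs3, a feedback inhibitor of cytokine signalling that also binds insulin receptor substrates, had the largest rise of this list, 4.19 ± 0.26 (adjusted p = 3.25e-11). The receptor Insr changed little, with a log2 fold change of -0.32 (adjusted p = 0.0277) that no longer passed in IR3, IR6 and IR9 alone (-0.18, adjusted p = 0.324) or when IR5, IR8, W4, W5 or W7 was left out. Foxo1, the forkhead factor that insulin keeps out of the nucleus, did not pass (0.16, adjusted p = 0.184), and Foxo3 fell by 0.99.

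Among 28 tested genes for glucagon, cAMP and transcriptional control, 10 rose, 8 fell and 10 did not pass. The glucagon receptor Gcgr did not pass (0.16 ± 0.24, limma, adjusted p = 0.546). The glucocorticoid receptor Nr3c1 fell to 414.9 ± 24.5 normalized counts in IR against 1094 ± 150 in sham, by 1.39 on the log2 scale (adjusted p = 6.04e-12). Klf15, a factor that promotes hepatic amino acid use, fell by 2.03 (adjusted p = 0.000212), and Ppara, the fatty acid receptor active in fasting, by 1.68. Hnf4a, a factor that PGC-1alpha coactivates at Pck1 and G6pc, rose by 0.72 (adjusted p = 1.04e-06). The immediate early gene Nr4a1 and the kinase Sik1, both induced by cAMP, rose by 1.68 and 1.61 on the log2 scale; with the Y-linked covariate Nr4a1 did not pass. Cebpb passed narrowly (0.66, adjusted p = 0.0469) and not in IR3, IR6 and IR9 alone (0.14, adjusted p = 0.686). It also did not pass when IR4, IR5, IR7, IR8, IR9, W1, W3, W4, W5, W6, W7 or W9 was left out.

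Among 14 enzymes of amino acid breakdown, 11 fell, none rose and 3 did not pass, with a median log2 fold change of -1.08. The 3 that did not pass were Tat, Hal and Aass. Prodh, proline dehydrogenase, fell to 743 ± 339 normalized counts in IR against 2695 ± 672 in sham, by 1.95 on the log2 scale (limma, adjusted p = 1.37e-07).

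Cell type markers moved with the surgery too, and their part in the results above was not tested. All 14 hepatocyte markers were abundant in both groups; 10 fell, and 4 rose, among them the 3 fibrinogen chains, which are acute phase genes. Their sum was 1262000 to 2181430 normalized counts in IR and 2473250 to 3004860 in sham, with Alb at 329683 to 687471 in IR and 1621090 to 1968872 in sham. Each library was also rescaled to an equal mean of log2 values over all 14 hepatocyte markers. In this mean the rises of the fibrinogen chains Fga, Fgb and Fgg (2.62, 2.00 and 1.66 on the log2 scale) partly offset falls such as that of Alb (-1.80). The rescaling moved the median of all genes to 0.26 and the share of calls that were higher to 62.2%, against 49.9%. Under it the 6 members that passed kept their direction and call, with log2 fold changes of -2.83 for Slc2a2, -2.72 for Gys2, -1.61 for Pklr, -1.11 for Ppargc1a, -0.48 for G6pc and 1.46 for Irs2. The log2 fold changes of Pck1, Fbp1 and Tat under it were -0.13, -0.14 and 0.07, each below the new median of 0.26, and none of the 3 passed.

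All 8 tested neutrophil markers of 12 rose. Without Lcn2, which hepatocytes also make, the other 11 summed to 344.7 to 4370 normalized counts in IR and 62.1 to 135.8 in sham. Kupffer cell and macrophage markers had 2 of 11 higher and 9 lower, summing to 4092 to 6841 in IR and 8741 to 12652 in sham. Sinusoidal endothelial markers had 2 of 10 higher and 6 lower (sum 2870 to 4298 in IR, 4471 to 6312 in sham), and stellate markers 5 of 9 higher and 4 lower (3095 to 4810 in IR, 4249 to 5374 in sham). Cholangiocyte markers had 4 of 5 tested higher (850.0 to 14613 in IR, 372.9 to 745.4 in sham), led by Spp1 and Sox9, which are not restricted to bile duct cells. Of 6 monocyte markers 3 rose and 1 fell (281.0 to 1038 in IR, 596.8 to 814.7 in sham). All 5 tested lymphocyte markers fell (17.2 to 55.2 in IR, 120.5 to 230.9 in sham). Of 5 tested erythroid markers 1 fell (145.9 to 3364 in IR, 534.4 to 3052 in sham), and none of the marker genes was at 0 in all libraries.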

How the data were processed

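RNA from mouse liver was sequenced in 18 samples. The values deposited by the authors are a normalized signal: reads per gene over one size factor for each library. Build GRCm38 and the tools DESeq2 1.14, STAR 2.5.0a and Trimmomatic 0.33 are listed per the submitters' processing notes. No source read here states the counter, annotation or strand setting. All positive values were whole multiples (within 0.01) of a library's value per read, so reads could be recovered (100% of values); the step of library W1 lies close to 1, and edgeR was also run without it.

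Symbols came from GENCODE vM21 (47224 of 47729 identifiers). Genes with at least 10 normalized counts in 9 of 18 columns were tested with limma 3.58.1 (trend, robust) on log2(normalized count + 1), which understates changes of low genes, with Benjamini-Hochberg adjustment over 12501 genes and a threshold of 0.05. The spread includes genotype, and nothing says that each library is a separate mouse. The labels' treatment gave the groups. Single values were also tested by exact permutation (SciPy 1.17.1). Alternatives included edgeR 4.0.16 and DESeq2 1.42.0 on recovered reads, and edgeR called 9540 genes. The limma fit was also run on simulated data, with few changed genes and the spread of the sham libraries in both groups. That run does not address a change as broad, or an IR spread as large, as in these data. Replicate numbers used when leaving out libraries are those of the headers.

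The members and lists were chosen with earlier results of these data known. Named list genes are the 2 largest rises and 2 largest falls that passed in each list, plus 14 fixed genes, of which some are not reported here; genes named beyond these were chosen after their values were seen.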

Additional observations from a re-analysis of the deposited data

Results flagged for a closer look

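Of 18 sets of 9 values (9 members in 2 groups), 2 held a library whose gap to its neighbour, as a share of the whole range, exceeded Dixon's 95% critical value, as chance alone does in about 1 in 20 sets. Irs2 was at 765.4 normalized counts in IR8, against at most 464.7 in the other IR libraries; IR8 also had the highest Igfbp1 of the IR libraries, 15032 normalized counts, the highest Tat, 20489, and the highest sum of neutrophil markers without Lcn2, 4370. Without IR8 the log2 fold change of Irs2 was 1.05 (limma, adjusted p = 0.000638). Pklr was at 4746.8 normalized counts in the sham library W8, against at most 3267 in the other sham libraries.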

How the results depend on the processing

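For each member, 32 alternatives were run; Slc2a2, Gys2, Pklr, Ppargc1a, G6pc and Irs2 kept direction and call in all of them, with log2 fold changes from -3.18 to -2.83, -3.27 to -2.72, -2.08 to -1.61, -1.43 to -1.11, -1.03 to -0.48 and 0.96 to 1.46 in that order. Of the other 3, Tat turned to 0.068 (adjusted p = 0.752) under hepatocyte-marker rescaling, and all 3 passed under some alternative that left out IR libraries or adjusted for the Y-linked level, as given above. Each alternative in which they passed kept IR9, the lowest IR library for all 3, and none of the 3 passed when only IR9 was left out. Genes called numbered 9473, from 7946 (Y-linked covariate) to 11851 (no filter, 27259 genes tested), with 9540 by edgeR, 9565 by DESeq2 and 9324 by edgeR without W1. Fewer genes tested under the stricter filter of 50 normalized counts left 3 neutrophil, 1 monocyte, 2 cholangiocyte and 0 lymphocyte markers called; with no filter 8 lymphocyte markers were called. Cholangiocyte calls were 2 with the Y-linked covariate. Erythroid calls were 2 by edgeR, DESeq2 and the Y-linked covariate, 3 with IR3, IR6 and IR9 only, and 1 to 2 when single libraries were left out; the cause was not tested. Correlated pairs in IR numbered 1 by Spearman and 0 by Pearson. With the header number as a replicate block 9403 genes were called; same-numbered libraries correlated above 0.1 in 1 of 9 pairs and 0 correlated best with their own number, so the numbers were not used to pair libraries. Il22ra2 was above 1.0 normalized counts only in libraries numbered 7, 8 and 9 of both groups, so the numbers may carry a structure that this check of single numbers does not address; no genotype was drawn from it. Reads limit Ppargc1a most, at 23.5 normalized counts in its lowest library.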

Other observations

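The sham library W8 stood at the end of the sham range for many genes: it was the lowest sham library for 21.2% and the highest for 25.3% of all genes tested. Among the 9 members it was the lowest for 5 (Pck1, Ppargc1a, Slc2a2, Gys2 and Irs2) and the highest for 2 (Pklr and Fbp1), and nothing particular to the members was tested. W8 also had the lowest sham value of Igfbp1, 141.5 normalized counts against a sham median of 765.7. Its Pck1 was 12552 normalized counts against a sham median of 24688, and its Xist was 1751, the lowest of the sham libraries.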
